A study of Homo sapiens with 4 samples.

Results

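The genes described here carry out MHC class I antigen presentation, the display of peptides from inside the cell on its surface. They were 9 of the 23287 genes measured and were chosen by symbol: the heavy chains HLA-B, HLA-C, HLA-E and HLA-F, the light chain B2M, the peptide transporter subunits TAP1 and TAP2, the loading chaperone TAPBP and the trimming peptidase ERAP1. They were measured in T47D cells, a progesterone receptor (PR)-rich line of human luminal breast cancer. Messenger RNA was sequenced after 3 h with 10 nM of the synthetic progestin R5020 or after 3 h with its solvent, ethanol (EtOH), with 1 library of each, and PR binding sites were mapped by ChIP-seq in cells given 10 nM R5020 for 1 h, with 1 library set against input DNA. All libraries came from this 1 cell line, with no genetic change named in the labels, and with 1 library per condition no difference could be tested and no value has a replicate error.

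Class I molecules are made of a heavy chain, the invariant light chain beta-2 microglobulin and a short peptide. Proteasomes cut cytosolic proteins, the TAP1 and TAP2 heterodimer pumps the peptides into the endoplasmic reticulum, ERAP1 trims them there and tapasin, the product of TAPBP, holds empty class I molecules next to the transporter until a peptide binds. The complexes are read by cytotoxic T cells and by natural killer cells, and their genes share interferon-responsive and NF-kB-responsive promoter elements and a module of X and Y boxes bound by the RFX, CREB and NF-Y factors and the coactivator NLRC5. Tumour cells often carry low levels of this machinery.

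The reference sequence before the start of 4 of the genes is shown first, since these stretches hold the promoter elements through which the family is known to be regulated. Each was read from GRCh37, the build named hg19 in the labels, on the strand of the gene and up to 250 bases before the start of the transcript with the highest level in EtOH, leaving out bases annotated as UTR of any gene. The sequences are those of the reference and not of the alleles of T47D. Capitals mark an interferon-response-like word (AAANNGAAA, or TTTCNNTTT on the other strand), a kappaB-like word (GGGANTNCC, or GGNANTCCC), an X2-like word (TGACGC, or GCGTCA) and a Y box (CCAAT, or ATTGG).
HLA-B, chr6:31325071-31325239, minus strand: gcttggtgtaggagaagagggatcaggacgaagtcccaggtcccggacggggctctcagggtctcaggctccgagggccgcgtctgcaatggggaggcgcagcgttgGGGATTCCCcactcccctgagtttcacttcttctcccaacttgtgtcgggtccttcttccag
HLA-C, chr6:31239914-31240163, minus strand: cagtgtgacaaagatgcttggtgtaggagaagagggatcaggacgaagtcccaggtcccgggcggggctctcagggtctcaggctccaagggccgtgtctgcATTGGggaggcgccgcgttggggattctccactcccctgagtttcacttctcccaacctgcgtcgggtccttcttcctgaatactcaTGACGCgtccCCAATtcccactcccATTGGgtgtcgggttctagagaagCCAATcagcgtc
HLA-F, chr6:29690867-29691082, plus strand: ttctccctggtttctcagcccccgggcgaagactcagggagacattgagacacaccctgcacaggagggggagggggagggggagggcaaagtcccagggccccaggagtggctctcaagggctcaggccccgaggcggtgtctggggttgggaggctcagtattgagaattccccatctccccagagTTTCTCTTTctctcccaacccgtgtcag
B2M, chr15:45003522-45003684, plus strand: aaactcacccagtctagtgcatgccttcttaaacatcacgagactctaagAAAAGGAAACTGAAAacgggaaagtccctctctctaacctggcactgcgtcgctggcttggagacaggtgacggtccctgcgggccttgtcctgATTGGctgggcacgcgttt
The HLA-B stretch held a kappaB-like word 143 to 135 bases before the start, a word found in the 250-base windows of 3.72% of 19501 genes and of 1 of the 9 genes. The HLA-C window held an X2-like word 61 to 56 bases before the start followed by 3 Y boxes, and the same X2-like word stood 73 to 68 bases before the start of HLA-B, in bases not shown. The B2M stretch held a pair of overlapping interferon-response-like words between bases 113 and 99 and a Y box between bases 19 and 15. The interferon-response-like word was present in the windows of HLA-F, B2M and TAP2, against 8.78% of all windows. The X2-like word was present in the windows of 2 of the 9 genes, against 8.29% of all windows. The short Y box was present in the windows of 6 of the 9 genes and is common, with 32.7% of all windows holding it. Neither the steroid receptor palindrome ACANNNTGT nor its half-site AGAACA, searched on both strands, was found in the 250-base window of any of the 9 genes, against 3.68% and 10.8% of all windows. A match, or its absence, describes these letters only.

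The depth of the RNA libraries was estimated as deposited coverage times transcript length over the read length of 50 nt. It came to 35151493 reads in EtOH and 36203604 reads in R5020. The paper reports larger numbers of unique paired-end reads for both libraries, with more in EtOH than in R5020, so the estimate is not the sequencing depth itself. Of all genes, 11018 had an FPKM (a level per transcript length and per library size) of at least 1 in at least 1 library and were retained, among them all 9 genes. Changes are given as log2((FPKM in R5020 + 1) / (FPKM in EtOH + 1)), so that negative values are lower in R5020, and 1.5-fold served as the threshold of size. Markers of luminal cells were present in EtOH and R5020, such as KRT19 at 608 and 477 FPKM and EPCAM at 62.2 and 55.6 FPKM. Of the other markers of that list, GATA3 was at 253 and 126 FPKM, ESR1 at 17.2 and 10.9 FPKM and PGR, the gene of PR itself, at 23.7 and 15.3 FPKM, all 3 lower in R5020 by more than 1.5-fold. None of 9 leukocyte markers passed an FPKM of 0.604 in either library. Of the 5 fibroblast and endothelial markers, COL1A1 was at 5.12 FPKM in EtOH and 3.31 in R5020 and the others were below 1. KRT8 and KRT18, keratins that define luminal cells, were listed at 0 in EtOH and at 285 and 174 FPKM in R5020, so a listed 0 in these tables does not by itself show that a gene was silent.

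The 9 genes spanned a wide range of levels in the vehicle library. B2M was highest, followed by TAPBP, HLA-B, HLA-C, HLA-E, TAP1, ERAP1, TAP2 and HLA-F, and in R5020 the order of the other 8 was the same with ERAP1 listed at 0. After R5020, 8 of the 9 genes were lower than in EtOH, against 49.1% of the retained genes, and 1 was higher. Most of these differences were small: apart from ERAP1, none reached 1.5-fold. At that threshold 1 of the 9 genes was lower, against 4.14% of retained genes, and 0 were higher, against 7.67%. The median log2 change of the 9 genes was -0.21, and that of all retained genes was 0.0053. The 8 genes above 0 in both libraries had changes between -0.36 and 0.069 on the log2 scale.

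**Figure D1:**
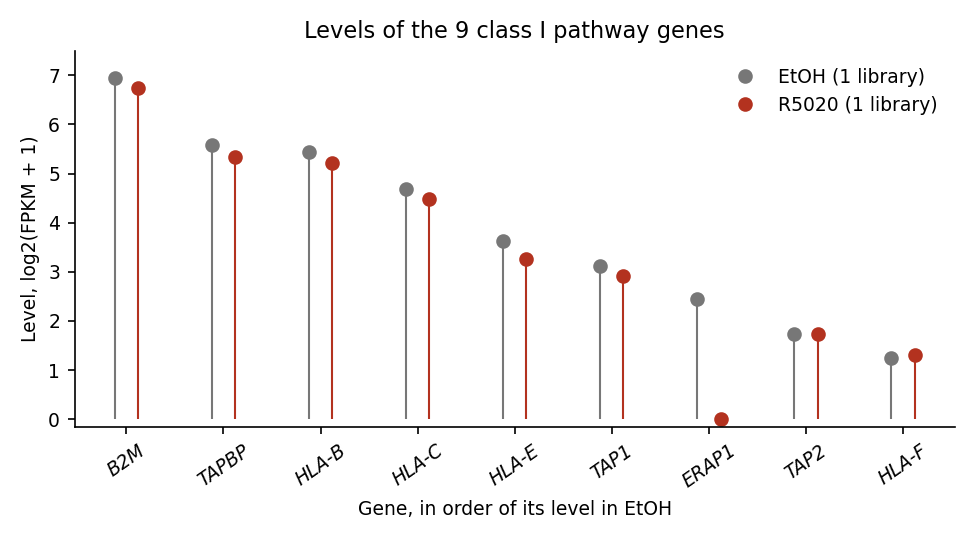
Level of each of the 9 genes as log2(FPKM + 1) in the EtOH library (grey) and the R5020 library (red), with genes in order of their level in EtOH. The levels run from 121 FPKM for B2M to 1.36 FPKM for HLA-F in EtOH, and the R5020 point lies lower for every gene but HLA-F, with ERAP1 listed at 0.

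**Figure D2:**
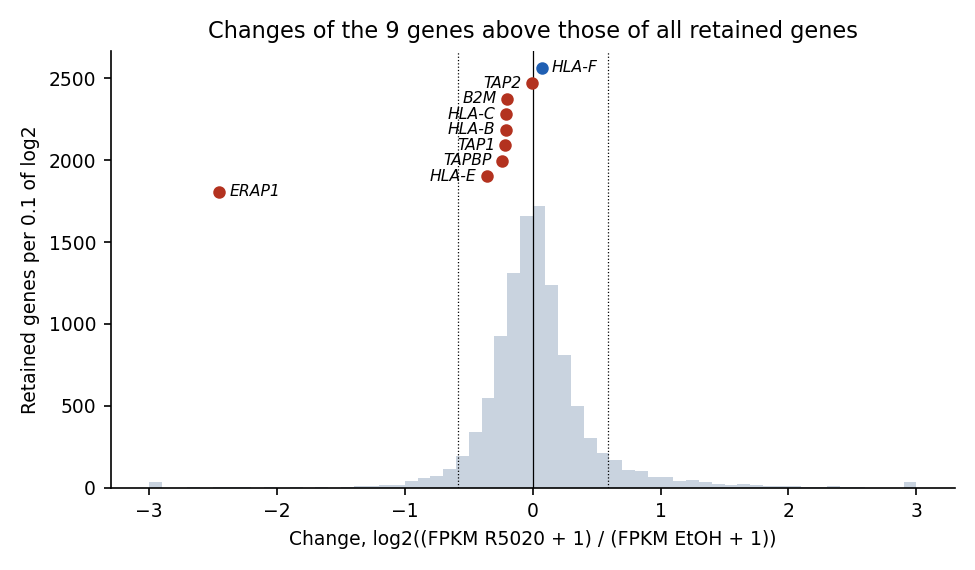
Log2 change of each of the 9 genes (points, red where lower and blue where higher) above the histogram of the 11018 retained genes, with changes beyond 3 drawn at 3 and dotted lines at 1.5-fold. HLA-E, TAPBP, TAP1, HLA-B, HLA-C and B2M lie between -0.36 and -0.20, TAP2 and HLA-F lie near 0, and ERAP1 lies apart at -2.45 because of its listed 0.

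The classical heavy chains, which present peptides to cytotoxic T cells, were the most abundant of the 4 HLA genes. HLA-B (chr6:31321649-31324989, minus strand) was at 42.2 FPKM in EtOH and 36.3 FPKM in R5020, a difference of -13.9% and a log2 change of -0.21. HLA-C (chr6:31236526-31239913, minus strand) was at 24.9 FPKM in EtOH and 21.4 FPKM in R5020, a difference of -14.0%, with a log2 change of -0.21. The deposited intervals of Cufflinks, which cover the uncertainty of assigning reads within 1 library and not the spread between cultures, did not overlap for HLA-B (39.3 to 43.6 in EtOH and 33.5 to 37.2 in R5020). Those of HLA-C did not overlap either (16.8 to 19.5 and 14.2 to 16.7), but both of its FPKM values lay above their own interval, so that the interval does not describe the value it stands beside. Of all retained genes, 21.1% had a change at or below that of HLA-C.

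The non-classical heavy chains were lower in level and went different ways. HLA-E, the ligand of the natural killer cell receptor NKG2A (chr6:30457183-30461982, plus strand), was at 11.3 FPKM in EtOH and 8.62 FPKM in R5020. The difference was -23.9%, a log2 change of -0.36, the largest decrease among the genes above 0 in both libraries, and 10.8% of retained genes had a change at or below it. The intervals of HLA-E were 10.7 to 12.2 in EtOH and 8.10 to 9.13 in R5020 and did not overlap. HLA-F (chr6:29691117-29695073, plus strand), a largely intracellular class I chain, was the gene with the lowest level and the only one that was higher in R5020. Its FPKM was 1.36 in EtOH and 1.48 in R5020, a log2 change of 0.069 that rests on coverage worth about 100 and 111 reads. Its expressed transcripts, NM_001098478 and NM_001098479, had overlapping intervals and made up 47.6% and 52.4% of its level in EtOH and 47.7% and 52.3% in R5020.

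Reads of one HLA gene can match another, and reads with several positions were discarded by the authors. Of the distinct 50-base words in the GENCODE transcripts of each gene, 1.75% for HLA-B, 5.46% for HLA-C, 4.01% for HLA-E and 8.22% for HLA-F also occurred in a transcript of another HLA gene. Counted against transcripts of any other gene, the share was 41.4% for HLA-B, 5.79% for HLA-C, 5.19% for HLA-E, 21.2% for HLA-F, 12.8% for TAP1, 18.5% for TAP2, 21.8% for TAPBP, 7.72% for ERAP1 and 0% for B2M. These larger shares include genes annotated over the same bases, such as CAST for ERAP1, and were not split into those and true copies elsewhere. The aligner allowed 2 mismatches, and reads from alleles farther from the reference could not be placed. The levels of the 4 HLA genes relative to each other are uncertain for these reasons.

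The light chain followed the classical heavy chains. B2M (chr15:45003685-45010357, plus strand) was at 121 FPKM in EtOH and 106 FPKM in R5020, a difference of -12.9%, with a log2 change of -0.20. Its intervals, 102 to 110 in EtOH and 90.7 to 98.2 in R5020, did not overlap, but again both FPKM values lay above their own interval. The ratio of each classical heavy chain to the light chain was nearly the same in both libraries. The HLA-B level was 0.347 of the B2M level in EtOH and 0.344 in R5020, and the HLA-C level was 0.205 and 0.202 of it. The HLA-E level was 0.0932 of the B2M level in EtOH and 0.0814 in R5020.

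The peptide transporter subunits differed from each other. TAP1 (chr6:32812986-32821748, minus strand), which contributes one chain of the ATP-driven transporter, was at 7.71 FPKM in EtOH and 6.52 FPKM in R5020, a difference of -15.5%, with a log2 change of -0.21. The TAP1 intervals, 7.10 to 8.33 and 5.95 to 7.08, did not overlap. TAP2 (chr6:32789610-32806547, minus strand), the partner chain, was at 2.34 FPKM in EtOH and 2.32 FPKM in R5020, a log2 change of -0.0062, and 48.3% of retained genes had a change at or below it. TAP2 had 2 transcripts with different 3′ ends, of which NM_018833 made up 74.8% of its level in EtOH and 75.8% in R5020, and the intervals of each overlapped between the libraries. TAP1 was thus above TAP2 in both libraries, and only TAP1 was lower in R5020 beyond its own intervals.

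TAPBP was the one gene of the 9 with transcripts in opposite directions whose intervals did not overlap between the libraries. Tapasin bridges the transporter and the empty class I molecule and edits the peptides that are bound. Summed over transcripts, TAPBP (chr6:33267472-33282164, minus strand) was at 46.8 FPKM in EtOH and 39.6 FPKM in R5020, a difference of -15.5%, with a log2 change of -0.24. Its transcript NM_172209, of 3497 nt, was at 33.3 FPKM in EtOH and 23.7 FPKM in R5020, with intervals of 31.9 to 35.1 and 22.2 to 25.2 and a log2 change of -0.48. The transcript NM_003190, of 3758 nt, was at 13.5 FPKM in EtOH and 15.9 FPKM in R5020, with intervals of 12.4 to 14.6 and 14.7 to 17.1 and a log2 change of 0.22. Accordingly, NM_172209 made up 71.1% of the TAPBP level in EtOH and 59.8% in R5020. The transcripts share the same first and last positions, so their separation rests on the reads across the part in which they differ. The TAP1 transcript and NM_172209 of TAPBP, together with the transcripts of HLA-B, HLA-C, HLA-E, B2M and ERAP1, gave 7 of 9 transcripts of at least 1 FPKM whose R5020 interval lay wholly below that of EtOH, and NM_003190 was the 1 transcript wholly above. Over all 13579 such transcripts with usable status, 21.3% lay wholly below and 26.8% wholly above, so these intervals separate the libraries for a large share of transcripts.

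**Figure D3:**
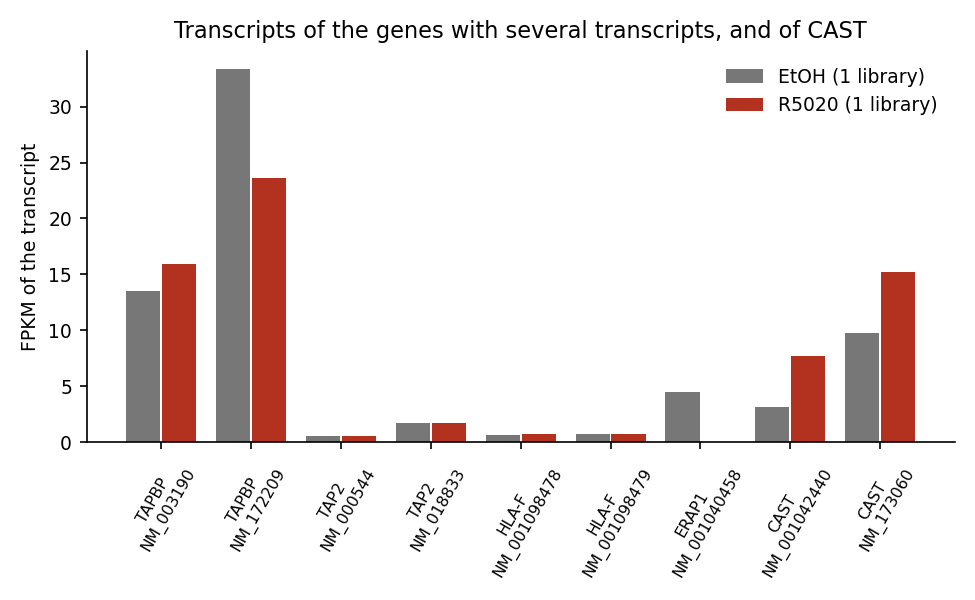
FPKM of each transcript above 0 of TAPBP, TAP2, HLA-F, ERAP1 and of CAST, which overlaps ERAP1, in EtOH (grey bars) and R5020 (red bars). For TAPBP, NM_172209 is at 33.3 and 23.7 FPKM and NM_003190 at 13.5 and 15.9 FPKM, the ERAP1 transcript has no R5020 bar, and both CAST transcripts are higher in R5020.

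ERAP1, the endoplasmic reticulum aminopeptidase that shortens peptides to the length that class I molecules hold, was the one gene past the threshold, and its value rests on a listed 0. ERAP1 (chr5:96096514-96149848, minus strand) was at 4.48 FPKM in EtOH, all of it in transcript NM_001040458 with an interval of 4.17 to 4.79 and coverage worth about 2145 reads. In R5020 all 3 of its transcripts were listed at 0 with a status of OK, and no fold is given against that value. The log2 value of -2.45 is set by the pseudocount of 1 and would be -5.52 with a pseudocount of 0.1. Its 3′ end overlaps CAST, the calpastatin gene on the opposite strand (chr5:95997741-96110385), by 13872 bases over the whole gene and by 198 bases for NM_001040458. CAST was at 13.0 FPKM in EtOH and 22.9 FPKM in R5020, a log2 change of 0.78, and its transcripts NM_001042440 and NM_173060 were both higher in R5020. Both transcripts lay below their own intervals in both libraries. NM_173060 was at 9.78 FPKM against 19.2 to 20.9 in EtOH and at 15.2 FPKM against 28.8 to 30.9 in R5020, so the CAST levels are uncertain. Leaving aside genes shorter than 200 nt, 32 genes were at 0 in 1 library and at 3 FPKM or more in the other, 24 of them at 0 in R5020 and 8 at 0 in EtOH. Of these 32 genes, 87.5% overlapped the extent of another gene, against 24.8% of 10886 retained genes of that length. KRT8 and KRT18 are among them, and so is CAPNS1, a calpain subunit, at 101 FPKM in EtOH and listed at 0 in R5020. The part of gene overlap in the ERAP1 value was not tested.

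Over all retained genes the change moved with base composition. GC content was known for 87.8% of the retained genes, which were divided into 8 classes of equal size. The median log2 change fell from 0.097 in the class of 31.0 to 39.9% GC to -0.15 in the class of 60.1 to 76.0% GC, and the share of genes lower in R5020 went from 30.9% to 70.3%. The 4 HLA genes, TAP1 and TAPBP had 55.2 to 61.1% GC, TAP2 had 49.8% and B2M 41.1%. After the median of its own GC class was subtracted, the log2 change was -0.15 for HLA-B, -0.057 for HLA-C, -0.27 for HLA-E, -0.16 for TAP1, -0.15 for TAPBP and -0.28 for B2M. The corrected value of HLA-F was 0.15 and that of TAP2 was -0.021. Thus HLA-C came close to its class, while B2M, whose class had a median of 0.079, stood farther from it than before. Transcript length moved with the change too: the class of shortest transcripts, up to 1327 nt, had a median of -0.10, and B2M, of 987 nt, came to -0.097 once that median was subtracted. What part of the decreases belongs to base composition or length, rather than to R5020, cannot be told apart with 1 library per condition.

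**Figure D4:**
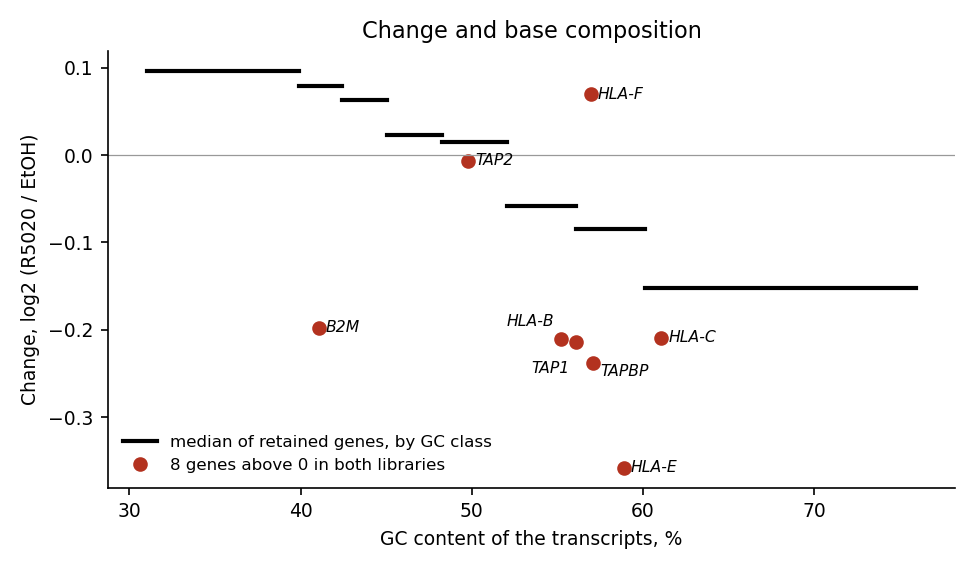
Log2 change against the GC content of the transcripts for the 8 genes above 0 in both libraries (points), with the median of all retained genes in 8 GC classes (black lines, each drawn over the range of its class). The class medians go from 0.097 to -0.15, HLA-E and B2M lie -0.27 and -0.28 from the line of their class, HLA-C lies -0.057 from it and HLA-F lies above it.

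Of the 9 genes, 2 had a PR binding site within 50 kb, B2M and ERAP1, against 52.7% of the retained genes. The B2M site (chr15:45003587-45004059, 473 bases, score 112) covered the start of the gene: it reached from the promoter stretch shown above over exon 1 into intron 1. The score, which the MACS peak caller sets from the p-value of a site and which is higher for stronger evidence, ranged from 50 to 1965 over 11181 sites, with a median of 74.5, and 10.4% of the sites scored at least as high as that of B2M. The ERAP1 site (chr5:96070403-96070815, 413 bases, score 85.1) lay 25.7 kb beyond the 3′ end of ERAP1 and inside an intron of CAST, and 29.7% of sites scored at least as high. The part of the B2M site in intron 1 and the central part of the CAST site are given on the plus strand of GRCh37, since they belong to the only deposited sites within 50 kb of the 9 genes, with any steroid palindrome or half-site in capitals.
B2M site, intron 1, chr15:45003812-45004059: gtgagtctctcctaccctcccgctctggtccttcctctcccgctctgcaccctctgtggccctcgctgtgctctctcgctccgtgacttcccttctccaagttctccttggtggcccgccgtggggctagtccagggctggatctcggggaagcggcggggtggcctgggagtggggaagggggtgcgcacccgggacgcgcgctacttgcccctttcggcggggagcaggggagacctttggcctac
CAST intron site, chr5:96070484-96070733: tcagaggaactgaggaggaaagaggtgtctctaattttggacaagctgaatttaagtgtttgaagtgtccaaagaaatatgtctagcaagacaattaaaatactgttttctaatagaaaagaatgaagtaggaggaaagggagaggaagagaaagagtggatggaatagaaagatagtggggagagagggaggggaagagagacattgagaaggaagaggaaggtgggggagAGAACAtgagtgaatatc
The CAST site held 1 half-site, AGAACA, 110 bases from its centre, and the B2M site held neither the palindrome nor a half-site. Over the 11178 sites on the main chromosomes, 11.6% held the palindrome and 25.2% a half-site, so most sites of this ChIP-seq library held neither word exactly. B2M, with a site over its start, had a log2 change of -0.20, and HLA-B and HLA-C, with no deposited site within 50 kb, had -0.21 each. HLA-B and HLA-C lie in the stretch of chromosome 6 described next, where a missing site is not a measurement of absent binding. Whether a site goes with the change was not tested.

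The other 7 genes lie in the MHC on chromosome 6, and that region was devoid of deposited sites. No site was present between chr6:28255568 and chr6:33602053, a stretch of 5.35 Mb that holds all 7 genes. The nearest site was 320 kb from TAPBP, 780 kb from TAP1, 796 kb from TAP2, 1436 kb from HLA-F, 2202 kb from HLA-E, 2277 kb from HLA-B and 2362 kb from HLA-C. Chromosome 6 carried 271 sites with a median spacing of 133 kb, and 33.8% of its 450 retained genes outside the stretch had a site within 50 kb. In length the stretch was the 40th of 11156 gaps between neighbouring sites. It was the 5th of 270 on chromosome 6, where the longest was 9.49 Mb. By the number of retained genes inside, 95, it was the 1st of the 634 gaps of at least 1 Mb, the next holding 42. The stretch coincided with the part of chromosome 6 for which hg19 holds alternative haplotype sequences. Genes that the deposited tables also place on the 7 chromosome 6 haplotypes ran from chr6:28493789 to chr6:33425320 on the main chromosome, all inside the stretch. Outside that part, another gap of chromosome 6, chr6:22214257-26383299, was 4.17 Mb long and held 25 retained genes. The other haplotypes of hg19 that the tables name, 1 on chromosome 17 and 1 on chromosome 4, corresponded to 1.36 Mb and 0.71 Mb of main chromosome, and both held 0 sites. For chromosome 17 there were 32 sites in the same length before and 27 in the same length after, and for chromosome 4 there were 0 on both sides. No site was placed on any of these haplotype sequences, and the authors kept uniquely mapped pairs only. In the RNA tables the 68 haplotype transcripts of the 7 genes were all at 0 in both libraries, as were all 2187 rows off the main chromosomes, and the levels given above come from the main chromosomes alone. Whether PR bound in the MHC therefore cannot be told apart from reads lost to several positions, and the absence of sites at the 7 genes is not a measurement of absent binding.

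**Figure D5:**
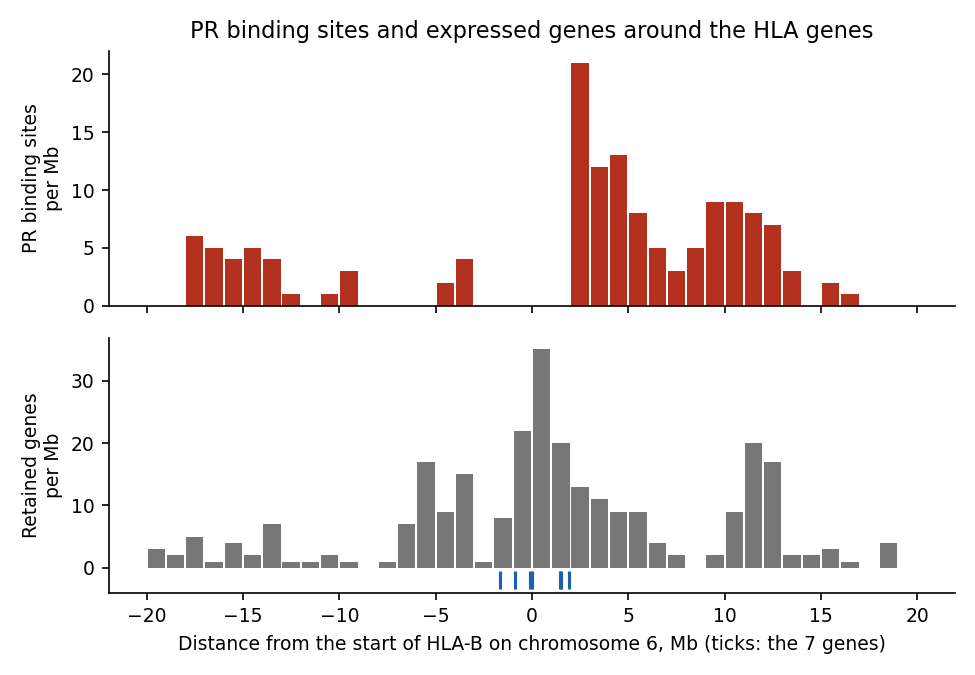
PR binding sites per Mb (top) and retained genes per Mb (bottom) on chromosome 6, by distance from the start of HLA-B, with blue ticks at the 7 genes. The bins from -3 to 2 Mb hold 0 sites and up to 35 retained genes per Mb, and the bin from 2 to 3 Mb holds 21 sites.

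The other expressed genes of the same stretch were also lower on average. Of 88 retained genes inside it that are not among the 7, 75.0% were lower in R5020 and their median log2 change was -0.16. Their median GC content was 55.8%, against 48.3% over all retained genes, and after subtracting the GC class medians their median change was -0.10. Among the 7 genes, the log2 changes of HLA-B, HLA-C, TAP1 and TAPBP were -0.21 to -0.24 before the subtraction and -0.16 to -0.057 after it. HLA-E was lower, at -0.36 and -0.27, TAP2 was at -0.0062 and -0.021, and HLA-F was higher in R5020, at 0.069 and 0.15.

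The wider pathway was read from gene lists, and as for the 9 genes no test was possible. The counts below stand against 49.1% of all retained genes that were lower in R5020 by any size, and 4.14% lower and 7.67% higher by 1.5-fold. Of 13 heavy chain and class I-like genes, 10 were retained, 8 were lower in R5020 and 2 were higher, with a median log2 change of -0.22. MICB, a stress ligand of the activating receptor NKG2D, was the 1 gene of this list past the threshold, at 4.40 FPKM in EtOH and 2.56 FPKM in R5020, a log2 change of -0.60. HFE, the class I-like regulator of iron uptake, went the other way, at 20.5 FPKM in EtOH and 27.9 FPKM in R5020, a log2 change of 0.43. Of 8 genes of peptide loading and folding, 7 were retained and 6 were lower, none past the threshold. The general chaperones of the endoplasmic reticulum in that list stood at levels like that of B2M in both libraries, with CALR at 130 FPKM in EtOH and 121 FPKM in R5020, PDIA3 at 103 and 95.6 FPKM and CANX at 90.9 and 95.6 FPKM.

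The genes of peptide supply went both ways. Of 6 trimming peptidases, 5 were retained, 3 lower and 2 higher, and ERAP1 alone was past the threshold. NPEPPS, a cytosolic aminopeptidase, was at 31.2 FPKM in EtOH and 23.8 FPKM in R5020, a log2 change of -0.38, and ERAP2, the partner of ERAP1, was below 1 FPKM in both libraries, at 0.902 and 0.972. Of the 5 genes of the immunoproteasome and its activator, 4 were retained, 2 lower and 2 higher. PSME1 and PSME2, the activator subunits, were at 13.6 and 6.47 FPKM in EtOH and at 11.1 and 4.95 FPKM in R5020, while the catalytic subunit PSMB8 was at 3.25 and 3.57 FPKM.

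The regulators of the class I genes were for the most part at low levels. Of 14 regulators, 11 were retained, 8 were lower, 3 were higher and none passed the threshold. NLRC5, the class I coactivator, was at 0.137 FPKM in EtOH and 0.108 FPKM in R5020, and IRF1, the interferon-induced activator, was at 0.655 and 0.683 FPKM. NFYB and RELA, at 17.1 and 16.5 FPKM in EtOH, were at 14.9 and 14.5 FPKM in R5020. Among 9 interferon receptors and signalling genes, 7 were retained, 4 higher and 3 lower. JAK2, a kinase of the interferon-gamma receptor, was past the threshold, at 0.895 FPKM in EtOH and 3.48 FPKM in R5020, a log2 change of 1.24. JAK1 was at 15.9 and 22.8 FPKM, a log2 change of 0.50, and IFNGR1 at 3.38 and 4.83 FPKM, a log2 change of 0.41. IFNAR1, also higher, was at 8.84 and 9.13 FPKM, a log2 change of 0.042. The 3 lower genes of this list were IFNGR2, STAT2 and TYK2. IFNGR2 was at 8.51 and 6.94 FPKM, a log2 change of -0.26. STAT2 was at 6.04 and 5.13 FPKM, a log2 change of -0.20, and TYK2 at 2.32 and 1.99 FPKM, a log2 change of -0.15. The receptors and signalling genes thus went both ways at 3 h.

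The class II genes, which are expressed by professional antigen-presenting cells, were mostly below 1 FPKM. Of 11 class II genes, 3 were retained, with HLA-DMA highest at 8.43 FPKM in EtOH and 9.29 FPKM in R5020 and the invariant chain CD74 at 2.10 and 2.13 FPKM. Their summed level was 12.8 FPKM in EtOH and 13.6 FPKM in R5020, against 121 and 106 FPKM for B2M alone. PR binding sites within 50 kb were present for 7 of the 11 retained regulators and 5 of the 7 retained interferon signalling genes, against 52.7% of all retained genes, and for 1 of the 10 retained heavy chain and class I-like genes, most of which lie in the stretch of chromosome 6 without sites.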

How the data were processed

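Libraries were grouped by their labels, and doses and times follow the methods of the study. For RNA-seq, the authors trimmed 50-bp paired-end reads, aligned them to hg19 with TopHat allowing 2 mismatches, discarded reads with several positions and ran Cufflinks. They deposited per RefSeq transcript an FPKM, the lower and upper bounds of its interval, a status and a coverage signal. For ChIP-seq, the authors aligned with Bowtie 1.1.2, per the labels, used only pairs with a unique position, ran MACS with input as control and deposited a score per site. The input library itself was not analysed here.

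FPKM values of the 41138 transcripts were summed by gene symbol over main chromosomes and haplotypes, genes at 1 FPKM or more in at least 1 library were retained, and changes used a pseudocount of 1 and a threshold of 1.5-fold. Sites were tied to genes within 50 kb of the main-chromosome extent. FPKM values are divided by length and library total, so no count test was used. Starts were converted to 1-based positions. All 24 chromosome names matched GRCh37, no locus ended past a chromosome, and annotation came from GENCODE release 44 lifted to that build. GC content was taken over the GENCODE transcripts of each symbol. Genes were named where they belong to the 9 or, within a list, passed 1.5-fold or were among the 4 most abundant. IFNGR1, TYK2, NLRC5, IRF1, ERAP2, PSMB9, CAST and CAPNS1 were added after their values were seen. The genes and lists were chosen with earlier results of these data known. Scripts ran in Python 3.11.15 with pandas 2.3.3 and were tested on simulated data.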

Additional observations from a re-analysis of the deposited data

How the results depend on the processing

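No paired analysis was possible because each condition had 1 RNA library and the labels carry no replicate numbers. The count of genes past 1.5-fold, 1, was the same with a pseudocount of 0.1, no filter, rescaled FPKM, main chromosomes only, the highest transcript and removal of GC class medians, and it was 0 when an FPKM of at least 1 was asked of both libraries or genes listed at 0 in 1 library were left out, since both remove ERAP1. The median log2 change of -0.21 lay between -0.22 and -0.15 under all alternatives run, of which the removal of GC or length class medians and of ERAP1 were chosen after seeing the data. The count of genes with a site within 50 kb, 2, was 1 at 10 kb and 1 at 25 kb, where ERAP1 was lost. It was 1 with a score of at least 100, again without ERAP1, and stayed at 2 at 100 kb and with scores at or above the median. The depth limits HLA-F and TAP2 most, with coverage worth 100 and 727 reads in EtOH.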
